A study of Homo sapiens with 16 samples.

Results

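GABPα binding in VCaP cells was compared between the library labelled t0 and the library of cells given vehicle, by asking what kind of vehicle peak was also called at t0. These were 2 of the 10 libraries with peak lists, in a series of 16 samples, and they held 2851 high confidence peaks at t0 and 6365 with vehicle, of 33260 in the 5 GABPα libraries. Members were chosen by label alone, as the VCaP GABPα libraries at t0 and with vehicle, 1 of each. VCaP is a human prostate cancer cell line. The vehicle was a volume of ethanol equal to that used for the drug, given after 48 h in charcoal-stripped serum, and the third VCaP library came from cells given 1 nM R1881, a synthetic androgen. The labels do not explain t0. The Jurkat libraries, 2 replicates, came from a human T-cell leukaemia line with no treatment named. All 5 used the same GABPα antibody. The t0 and vehicle libraries had separate input controls, while vehicle and R1881 shared 1 input. No VCaP condition had a replicate, so nothing below is a test of t0 against vehicle, and condition, library, input and depth cannot be told apart. Intervals are taken over peaks and cover counting error only. The depth of the libraries is unknown, since the files give no read numbers. Peak lists hold no expression values, so the identity of the cells was not checked against markers.

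GABPα is the DNA-binding subunit of GABP, also called nuclear respiratory factor 2, and belongs to the ETS family, whose members recognise a short purine-rich core. It pairs with GABPβ, which carries the transactivation domain. It is widely expressed and is known for binding near the start sites of housekeeping genes, among them genes of the mitochondrial respiratory chain and of protein synthesis. ERG, another ETS factor, is overexpressed in VCaP cells through a gene fusion.

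A high confidence peak was an interval found by both of the study's peak callers. Each was a SWEMBL interval lying wholly inside a MACS peak, and it carried the score of that MACS peak, which is −10 times the log10 of the MACS p-value. The lowest score, 50, thus stands for a MACS p-value of 1e-05. Many of the strongest peaks tie at a score of 3100, which was shared by 268 MACS peaks with vehicle and 34 at t0. Some scores lie above the tie, up to 3233 with vehicle and 3230 at t0. Order within the very top is therefore not an order of strength. Peaks overlapping by at least 1 bp in the 2 libraries are called shared, and the remaining vehicle peaks vehicle-only. A vehicle-only peak is called weak at t0 if a t0 MACS peak overlapped it, and uncalled at t0 if neither caller had found anything there. All positions are in hg18 and count from 1. No hg18 annotation was used, so sites are given by position without gene names.

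Nearly every t0 peak was a vehicle peak, and the share of vehicle peaks found at t0 was bounded by the shorter t0 list. Of the vehicle high confidence peaks, 2732 were shared (42.9%, Wilson interval 41.7 to 44.1%) and 3633 were vehicle-only. With the vehicle list cut to the length of the t0 list by score, 76.7% were shared (75.1 to 78.2%). Among the vehicle-only peaks, 1893 were weak at t0 (52.1%, 50.5 to 53.7%), 21 had a SWEMBL interval alone and 1719 were uncalled (47.3%, 45.7 to 48.9%). From the t0 side, 99.6% of peaks overlapped a vehicle peak, leaving 12. Over all 14183 vehicle MACS peaks, 18.7% overlapped a t0 high confidence peak and 32.7% any t0 MACS peak. Among the 8560 vehicle MACS peaks holding no high confidence interval, 6.64% overlapped a t0 MACS peak. Counted likewise as whole MACS peaks, 47.8% of the vehicle-only ones had a t0 MACS peak. Weak calls at t0 were therefore several times more frequent there than at the remaining vehicle MACS peaks. The comparison was not matched for score, and the remaining peaks were mostly low in score. Of the 5752 vehicle MACS peaks scoring 50 to 100, only 131 were high confidence.

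The shared peaks were the high-scoring part of the vehicle set. Their median vehicle score was 1813 (quartiles 1240 and 2475), which is percentile 74.4 of all vehicle high confidence peaks (95% interval of the median 73.3 to 75.4). Vehicle-only peaks had a median of 498 (quartiles 288 and 899), at percentile 29.8 (28.8 to 30.9). Within the vehicle-only peaks there was a further order, since those weak at t0 had a median of 797, at percentile 43.9, and those uncalled at t0 a median of 318, at percentile 16.9. In 87.8% of all pairs of a shared and a vehicle-only peak, the shared peak had the higher vehicle score. Of the shared peaks 85.9% lay in the upper part of the vehicle scores split at the median, against 23.0% of the vehicle-only peaks. The ranges nevertheless overlapped from end to end, with vehicle scores of 57.6 to 3233 for shared and 50 to 3219 for vehicle-only peaks.

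The share found at t0 climbed steeply through the middle of the vehicle scores and then levelled off. It was 2.99% in the lowest decile, 3.14% in the next, 30.5% in decile 5, 49.7% in decile 6 and 70.6% in decile 7. In deciles 8, 9 and 10 it stood at 81.8%, 83.8% and 82.9%, with Wilson intervals that overlap. The weak calls made an arch, rising from 10.1% of peaks in the lowest decile to 51.6% in decile 5 and falling to 14.9% in decile 9. Uncalled peaks fell from 85.7% in the lowest decile to 0.157% in decile 8, but numbered 8 in decile 9 and 10 in decile 10.

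The plateau at the top held many fragments of larger peaks, since SWEMBL split some MACS peaks into pieces. Of the 5623 vehicle MACS peaks with a high confidence interval, 4987 held 1 piece and 636 held 2 or more, up to 14. All pieces of a MACS peak carry its score, however small they are. The 328 vehicle-only intervals of deciles 8 to 10 were mostly such pieces: 82.6% lay in a split MACS peak, 73.5% were not its longest piece, and 214 of them (65.2%) had another piece of the same MACS peak that was shared with t0. In the same deciles 18.1% of the shared intervals lay in a split MACS peak and 4.49% were not the longest piece. In deciles 1 to 3, by contrast, 10.8% of the vehicle-only intervals lay in a split MACS peak.

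When each vehicle MACS peak was counted once, the share found at t0 rose with score all the way. It was 3.02% in the lowest decile, 31.0% in decile 5, 75.8% in decile 7, 89.0% in decile 8, 95.2% in decile 9 and 98.9% in decile 10. Over all whole MACS peaks, 2645 of 5623 were shared (47.0%, 45.7 to 48.3%), 1424 were weak at t0 (25.3%) and 1554 were uncalled (27.6%). No whole MACS peak of deciles 8 to 10 was uncalled at t0, and in decile 10 only 6 of 563 were weak.

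**Figure D1:**
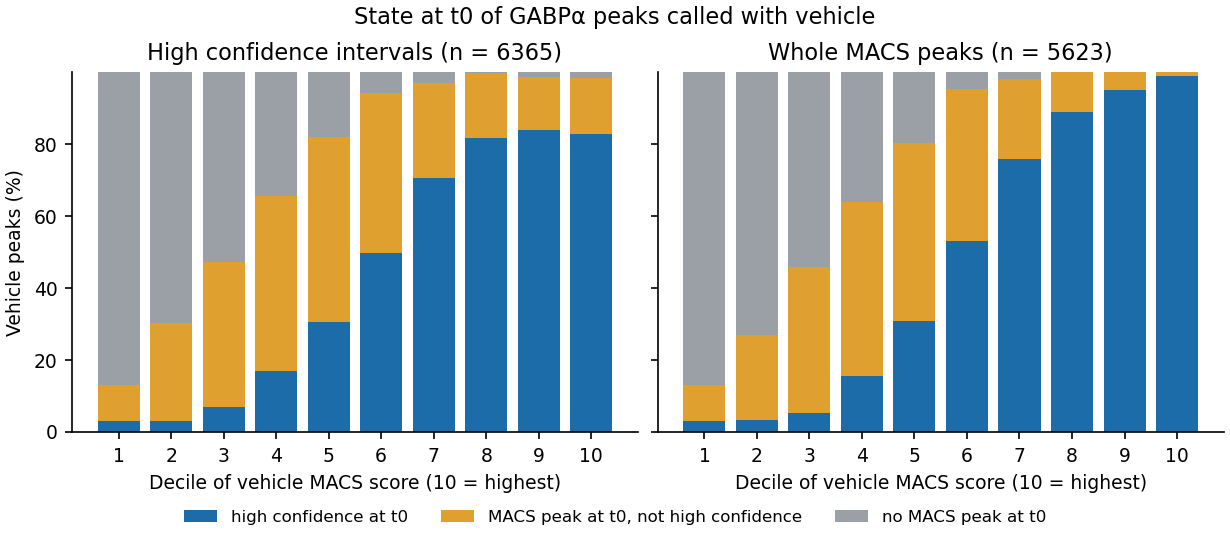
Percent of vehicle peaks that were high confidence at t0 (blue), had a t0 MACS peak without being high confidence there (orange) or had no t0 MACS peak (grey, which includes the 21 intervals with SWEMBL alone at t0), by decile of vehicle MACS score, for the 6365 intervals (left) and the 5623 whole MACS peaks (right). The blue share flattens near 82.9% in the top decile of intervals and reaches 98.9% for whole MACS peaks.

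Single sites show the same. The vehicle-only interval without t0 call that had the highest vehicle score was chr19:54648615-54648706, 92 bp wide with a score of 3219. It was the smaller of 2 pieces of the vehicle MACS peak chr19:54646311-54649399. The other piece, chr19:54646750-54647287, was among the 5 shared peaks with the highest t0 score, at 3154. All 5 of the highest-scoring uncalled intervals were pieces of a MACS peak shared with t0, at 277 to 1327 bp from the nearest t0 high confidence peak. Of the 5 highest-scoring intervals weak at t0, 4 were pieces of this kind. The exception was chrY:12843504-12848481, a single-piece MACS peak with a score of 3161 with vehicle, 3060 with R1881 and 395 at t0, where it was not high confidence.

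Whole MACS peaks that were strong with vehicle and absent at t0 stood lower in the list. They were picked after their values had been seen. The highest was chr15:73530700-73534605, with a score of 1539 with vehicle and 1030 with R1881. Each Jurkat replicate had a SWEMBL interval at that site but no MACS peak. Next were chr2:177785038-177786539, at 1429 and 1328, and chr20:47238033-47238908, at 1359 and 1470. Both of these were high confidence in Jurkat replicate 1, at 206 and 128, without a MACS peak in replicate 2. None of the 3 sites had a MACS peak or SWEMBL interval at t0. The distance to the nearest t0 high confidence peak was 82515, 339224 and 30261 bp. All 3 were called at high confidence with R1881 as well. Among the 5 whole MACS peaks weak at t0 that were strongest with vehicle, chr18:46067675-46069046 had the lowest t0 score. It scored 3100 with vehicle and with R1881 and 135 at t0. chrX:55042722-55043947 had the same 3100 with vehicle and with R1881 and 570 at t0.

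The t0 scores of the weak calls were mostly low, but ran up to 3100. Their median was 117 (quartiles 76.4 and 211), and 41.1% were under 100. The higher ones included pieces of vehicle MACS peaks shared with t0. An example was chr9:135272735-135272849, under a t0 MACS peak scoring 2453. Shared peaks had a median t0 score of 749 (quartiles 410 and 1253), with 1.46% under 100. The share of MACS peaks that were high confidence rose with score in each library, more steeply at t0. Of MACS peaks scoring 50 to 100, 0.669% at t0 and 2.28% with vehicle were high confidence. For scores of 150 to 200 these shares were 31.3% and 20.4%, for 200 to 300 they were 59.7% and 45.9%, and for 300 to 400 they were 79.4% and 72.0%. From 1000 upwards every MACS peak was high confidence in both. The libraries also differed in how many MACS peaks reached that range, which were 931 at t0 and 2603 with vehicle.

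At sites called in both libraries the t0 score was almost always lower. Over the 2645 shared whole MACS peaks, the t0 score was 0.434 times the vehicle score at the median (quartiles 0.285 and 0.634), and it was the higher of the 2 at 118 sites (4.46%). Over the 1424 weak ones the median ratio was 0.170, and 3 exceeded 1. For shared peaks the median ratio was 0.678, 0.450 and 0.523 in deciles 1 to 3, which held 17, 18 and 30 of them, stayed between 0.368 and 0.433 from decile 4 to decile 9, and was 0.506 in decile 10, where the vehicle scores meet the tie. Being shared requires high confidence at t0, so at low vehicle scores sites with a low ratio tend to be left out. The weak ones of deciles 1 to 3 had median ratios of 0.462, 0.259 and 0.196. R1881 scores, set against vehicle in the same way, had a median ratio of 1 (quartiles 0.938 and 1.10, 2641 sites). A score grows with depth as well as with enrichment, and depth could not be taken out of these ratios.

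The order of sites was partly kept. Across shared whole MACS peaks the 2 scores had a Spearman's rho of 0.697 (n = 2645), and across all 4069 vehicle MACS peaks with any t0 MACS peak it was 0.817. These describe peaks of the same 2 libraries and are no test. Of the 100 highest vehicle MACS peaks, 22 were among the 100 highest at t0, where ties at 3100 decide the vehicle list. Of the highest 500, 284 were in common (56.8% of each list), and of the highest 1000 vehicle peaks 666 (66.6%). The top vehicle peaks were rarely missing outright, as 99 of the highest 100, 495 of the highest 500 and 971 of the highest 1000 overlapped some t0 high confidence peak.

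**Figure D2:**
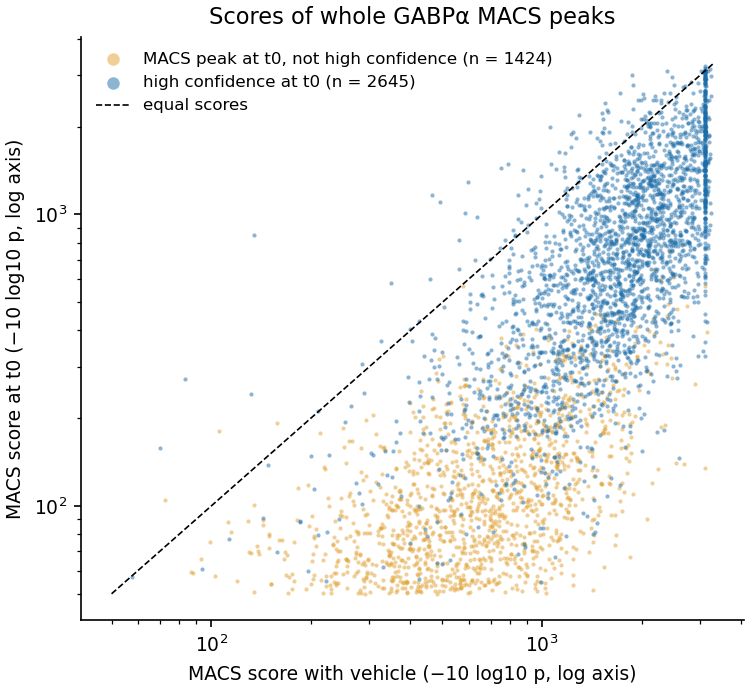
MACS score at t0 (vertical, log axis) against MACS score with vehicle (horizontal, log axis) for the 4069 whole vehicle MACS peaks with a t0 MACS peak, coloured by whether the site was high confidence at t0 (blue, 2645) or not (orange, 1424). Points lie mostly under the dashed line of equal scores, the orange ones near the lower limit of 50, and the vertical band on the right is the tie at 3100.

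The sites with the highest ratio of t0 to vehicle score were led by chr6:43592474-43592867, which had 851 at t0, 134 with vehicle and 468 with R1881. The remaining 4 were 3 sites on chromosome 11, between positions 64607915 and 65485968, and chr21:36614128-36614510. The chromosome 21 site had 1100 at t0, 491 with vehicle and 556 with R1881. Shared peaks with the lowest vehicle scores included chr1:153200711-153201144, at 57.6 with vehicle and 57.2 at t0, where neither R1881 nor Jurkat had a MACS peak. The R1881 library and each Jurkat replicate did have a SWEMBL interval at that site.

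Width separated the classes even more sharply than score. The class rule is not independent of width, since a wider interval more readily overlaps a t0 interval by at least 1 bp. Shared intervals had a median width of 361 bp with vehicle (quartiles 299 and 431) and vehicle-only intervals 150 bp (quartiles 110 and 214). The median was 175 bp for those weak at t0 and 135 bp for those uncalled. In 92.8% of pairs the shared interval was the wider. Shared intervals had medians of 270 bp in decile 1 (19 intervals) and 173 bp in decile 2 (20 intervals), and then widened with score, from 230 bp in decile 3 to 308.5 bp in decile 6 and 473 bp in decile 10. Vehicle-only intervals widened from 121 bp in decile 1 to 227.5 bp in decile 6 and then narrowed to 137 bp in decile 10. In deciles 8 to 10 together, where most vehicle-only intervals were minor pieces of split MACS peaks, their median was 166 bp against 401 bp for shared intervals. The whole MACS peaks also differed, with medians of 1330 bp for shared and 942 bp for vehicle-only.

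**Figure D3:**
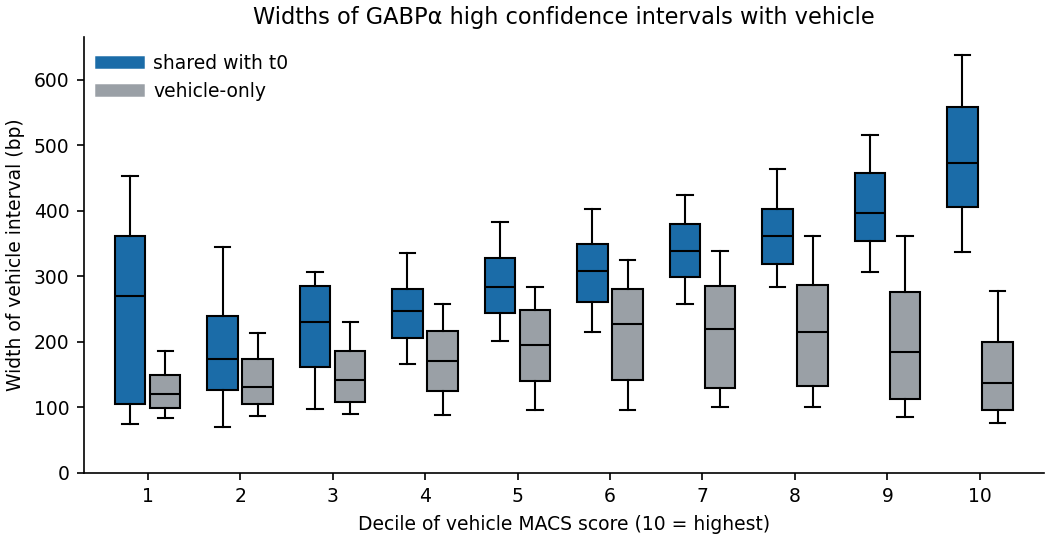
Width in bp of vehicle high confidence intervals by decile of vehicle MACS score, shared with t0 (blue) or vehicle-only (grey), with boxes from the first to the third quartile, a line at the median and whiskers at the 10th and 90th percentiles. Median widths part most in decile 10, at 473 bp against 137 bp.

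Where an interval of each library matched exactly 1 of the other (2571 pairs), the intervals of the 2 libraries had nearly the same centre. The midpoints were 24.5 bp apart at the median (quartiles 11.5 and 42.5), and 81.9% were within 50 bp. The t0 interval was narrower in 94.0% of pairs, with a median of 250 bp against 360 bp, and lay wholly inside the vehicle interval in 77.4%. The MACS peaks of shared sites were likewise narrower at t0, at 853 bp against 1330 bp. By contrast the median width over all high confidence peaks was 239 bp at t0 and 233 bp with vehicle, as the vehicle set also held the narrow vehicle-only peaks.

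Sites found at t0 were also the ones more often found in Jurkat cells, whose calls played no part in forming the classes. Of all vehicle high confidence peaks 52.4% overlapped a high confidence peak of either Jurkat replicate, and of all vehicle MACS peaks 25.6%. Among shared peaks it was 79.4% (77.8 to 80.8%) and among vehicle-only peaks 32.1% (30.6 to 33.7%), a difference of 47.2 percentage points (Newcombe interval 45.0 to 49.3). With the vehicle list cut to the t0 length by score the difference was 25.2 points (21.2 to 29.2). Peaks weak at t0 stood between, at 44.8% (42.6 to 47.0%), above the uncalled peaks at 18.0% (16.2 to 19.9%). Each replicate gave the same order, with 70.5% against 28.1% in replicate 1 and 75.6% against 26.0% in replicate 2.

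Peaks of like vehicle score differed much less. Jurkat presence rose with vehicle score in both classes, from 9.40% of vehicle-only peaks in decile 1 to 71.6% in decile 10, and from 42.1% to 94.7% of shared peaks, with 19 shared peaks in decile 1. Within deciles the difference averaged 17.0 percentage points (13.8 to 20.1), and the shared share was the higher in all 10. It was 12.3 points (9.14 to 15.5) for replicate 1 and 20.9 points (17.7 to 24.1) for replicate 2, so the replicates differed by more than counting error. Counted as whole MACS peaks it was 9.33 points (5.51 to 13.2), with the shared share lower in decile 10, at 95.3% against all 6 vehicle-only peaks. By replicate it was 4.003 points (0.180 to 7.83) in replicate 1 and 13.5 points (9.61 to 17.4) in replicate 2 taken alone. With a Jurkat MACS peak in place of a high confidence peak it was 6.63 points for either replicate, and for replicate 1 alone 2.13 points with an interval of −0.846 to 5.11, which includes 0. Peaks of like score and width differed by 9.07 points. Among vehicle-only whole MACS peaks, the weak ones exceeded the uncalled ones by 6.47 points within deciles (2.68 to 10.3).

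**Figure D4:**
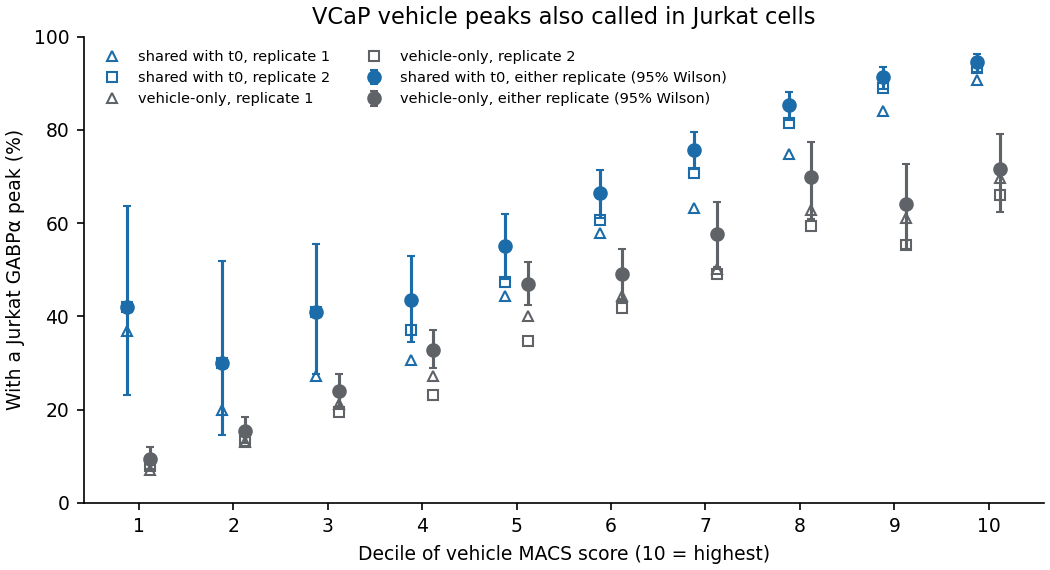
Percent of VCaP vehicle peaks that overlapped a Jurkat GABPα high confidence peak, by decile of vehicle MACS score, for peaks shared with t0 (blue) and vehicle-only peaks (grey). Filled points count either replicate and have 95% Wilson bars, open triangles show replicate 1 and open squares replicate 2. Both classes rise with score, and the filled blue point is above the filled grey point in every decile, with overlapping bars in deciles 2, 4 and 5.

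R1881, the other VCaP library made after treatment, had a MACS peak at 98.4% of vehicle high confidence peaks, but fewer were high confidence there. Of all vehicle high confidence peaks 84.2% were high confidence with R1881, which was 99.6% of the shared and 72.6% of the vehicle-only peaks. The latter were 82.8% of those weak at t0 and 61.3% of those uncalled. By MACS alone the classes came close together, with 99.9% of shared and 97.4% of vehicle-only peaks, and 95.1% even of the uncalled ones. Within score deciles the high confidence shares differed by 13.1 percentage points (11.4 to 14.8), or 7.04 points (5.87 to 8.21) for whole MACS peaks. The MACS shares, both near their ceiling, differed by −0.0577 points (−0.452 to 0.336). Hence 1635 of the 1719 peaks uncalled at t0 had a MACS peak in a second VCaP library. Since R1881 and vehicle shared an input that t0 did not, an effect of the input on these calls was not tested.

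The R1881 library and the 2 Jurkat replicates were also counted together. Of the shared peaks 66.6% (1820) were high confidence in all 3, against 18.7% (680) of vehicle-only and 7.39% of uncalled peaks. At the other end, 7 of the 2732 shared peaks (0.256%) were in none of the 3, against 831 vehicle-only peaks (22.9%). Over all vehicle peaks, 84.2% were high confidence with R1881 and 41.2% in both Jurkat replicates. The counts over all 3 libraries were not matched for vehicle score. Within score deciles, shared exceeded vehicle-only peaks by 13.1 percentage points for R1881 and by 16.3 points for both Jurkat replicates.

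ERG peaks were rarer at shared than at vehicle-only sites before score was considered. An ERG MACS peak from vehicle-treated VCaP cells overlapped 6.77% of all vehicle GABPα peaks, 2.78% of the shared (2.23 to 3.47%) and 9.77% of the vehicle-only ones (8.85 to 10.8%). It was 11.1% for peaks weak at t0 and 8.44% for those uncalled. Within GABPα score deciles the difference was 0.199 percentage points (−1.17 to 1.57), so at like vehicle score the classes did not differ detectably. ERG at t0 overlapped 0.801% of all vehicle peaks, 0.549% of shared and 0.991% of vehicle-only peaks. The interval of that difference (−0.877 to 0.00667 points) included 0, and within deciles it was 0.0534 points (−0.504 to 0.610). ERG with R1881 overlapped 7.18% of all, 3.33% of shared and 10.1% of vehicle-only peaks. Within deciles that difference was 0.509 points (−0.976 to 1.99). The antibody catalogue number that the labels give these ERG libraries differs from the ERG antibody's number in the study's methods, so which antibody was used is not settled here.

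Chromosomes differed in how much of their vehicle set was found at t0, and not only where their vehicle scores differed. Among the 23 chromosomes with at least 50 vehicle peaks the share ran from 30% on chromosome 21 (80 peaks, Wilson interval 21.1 to 40.8%) to 51.5% on chromosome 19 (608 peaks, 47.5 to 55.4%). Chromosome 21 also had low vehicle scores, with a median percentile of 27.0, and chromosome 19 high ones, at 59.0. The X chromosome went the other way. Its 163 vehicle peaks had a median score percentile of 65.4, yet 38.7% were found at t0 (31.5 to 46.3%), where the mean of all peaks in the same deciles would give 57.0%. Chromosome 16 was similar, at 41.5% (35.5 to 47.7%) against 51.3%. Chromosomes 18 and 13 had 34.1% and 32.2%, against 44.5% and 42.0% from their deciles, on 88 and 87 peaks, and chromosome 9 was higher than its deciles by 7.37 percentage points. These chromosomes were singled out after the values were seen, and the spread expected between chromosomes was not tested.

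The missing X peaks were mostly weak at t0 and not uncalled. Weak peaks were 45.4% of its vehicle peaks, against 29.7% over all chromosomes. In Jurkat 76.7% of the X peaks were found, against 52.4% over all. These comparisons were not matched for score, and both shares depended on score. Over all chromosomes, 88.75% of vehicle-only peaks in decile 6 and 89.8% in decile 7 were weak at t0. Chromosome 16, with a median score percentile of 60.1, had 44.7% weak. The scores of shared sites set apart 3 of the 5 chromosomes named above. The median ratio of t0 to vehicle score was lowest on chromosome 18, at 0.30 (95% interval 0.262 to 0.360, 29 sites), the X chromosome, at 0.326 (0.293 to 0.408, 57 sites), and chromosome 16, at 0.355 (0.319 to 0.380, 101 sites). All 3 intervals lay under the overall median of 0.434. Chromosomes 13 and 9 had 0.416 (0.333 to 0.674) and 0.432 (0.364 to 0.507), intervals that include it. Chromosomes 20 and 21 had the highest ratios, at 0.531 (0.430 to 0.629, 90 sites) and 0.535 (0.250 to 1.01, 22 sites), and both intervals include the overall median. The R1881 to vehicle ratio held close to 1 on all 23 chromosomes, from 0.971 on chromosome 20 to 1.03 on chromosome 9. Chromosome copy number and the inputs were not measured here, and their part in these shares was not tested.

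**Figure D5:**
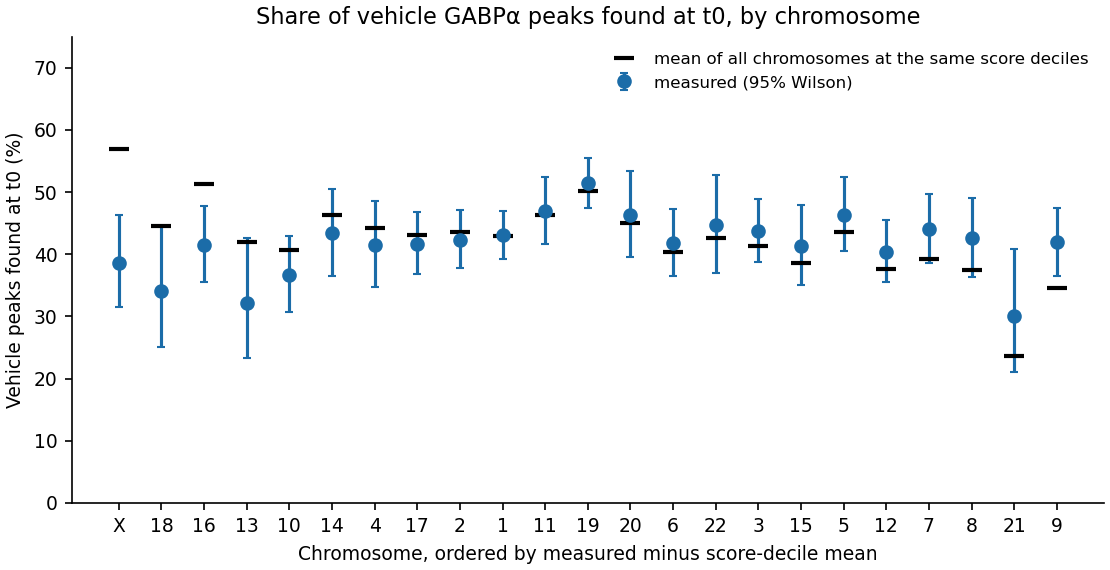
Percent of vehicle GABPα high confidence peaks found at t0 on each chromosome with at least 50 of them (blue points with 95% Wilson bars), beside the percent that the mean of all chromosomes gives at the same score deciles (black dashes), ordered by their difference. The points for X, 18 and 16 lie with their bars under the dash, and the point for 9 lies with its bar above it.

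Shared sites lay closer to other sites than vehicle-only ones, with a median distance to the nearest other site of 57.2 kb (quartiles 22.2 and 171) against 84.8 kb (29.3 and 231). Another vehicle MACS peak with a high confidence interval lay within 10 kb of 12.9% of shared (11.7 to 14.2%) and 11.2% of vehicle-only whole MACS peaks (10.1 to 12.4%). The difference was 1.71 percentage points (0.00887 to 3.43), and within score deciles 0.346 points (−2.37 to 3.06). The distances themselves were not compared within deciles.

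All 12 t0 peaks without a vehicle counterpart had been called with vehicle by 1 of the 2 callers. A vehicle MACS peak covered 3 of them and a vehicle SWEMBL interval the other 9. Of the 12, 7 lay on chromosome 11 between 63498416 and 65139808. The strongest, chr11:65139283-65139596 and its neighbour chr11:65139671-65139808, shared a t0 MACS peak with a score of 1018, had no MACS peak with vehicle or R1881, and had scores of 1848 and 1464 in the Jurkat replicates. Next was chr11:63498416-63498821, with 540 at t0, no MACS peak with vehicle, 574 with R1881 and 1099 and 1038 in Jurkat. All 7 had a SWEMBL interval with vehicle and with R1881. Of the 5 elsewhere, chr8:69039760-69039858 had a higher MACS score with vehicle (779) than at t0 (229) but no SWEMBL interval, and chr17:30402451-30402535 likewise (476 against 215). chr3:171204451-171204627 had 291 at t0 and 122 with vehicle. chr13:107668779-107668901 and chr9:112057691-112057788, at 236 and 94.99, had only a SWEMBL interval with vehicle.

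The chromosome 11 sites lay in a stretch where the vehicle callers parted. In chr11:63400001-65200000, 1.8 Mb chosen after the sites had been seen, 40 of 53 vehicle SWEMBL intervals (75.5%) had no MACS peak, against 2.54% of vehicle SWEMBL intervals over the genome. With R1881 it was 30 of 46 (65.2%) and at t0 6 of 23 (26.1%), against 2.43% and 1.89% over the genome. In the Jurkat replicates it was 36.4% and 36.6%, against 23.1% and 17.4%. MACS found 11 peaks there at t0 and 12 with vehicle, and 5 of the t0 peaks had no vehicle MACS peak. The callers also parted beyond the chosen stretch. In chr11:66000001-67000000, 12 vehicle and 18 R1881 SWEMBL intervals had no MACS peak, of 166 and 149 such intervals over the genome. MACS sets reads against the input and the peak lists hold no input values, so the part of the input in this stretch was not tested.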

How the data were processed

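ChIP-seq peak lists for GABPα in VCaP cells (t0, vehicle and R1881, 1 library each) and Jurkat cells (2 replicates) were used, with VCaP ERG MACS peaks for 1 comparison. Reads of 36 bp were aligned by the authors to hg18 with BWA 0.5.5, and alignments of quality under 15 were removed. Peaks were called per library against input by MACS (version not given in the sources used here) and SWEMBL. The deposited score is −10 log10 of the MACS p-value, and high confidence intervals are the SWEMBL intervals inside MACS peaks. The 6 inputs have no peak list here and Jurkat ERG was not used. Read depth was not given.

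Intervals were joined by an overlap of at least 1 bp, and scores were ranked and cut into 10 bins over the vehicle high confidence peaks. Within-decile differences weighted each decile by the harmonic number of both classes, with Wald intervals. Shares had 95% Wilson and differences Newcombe intervals. With 1 library per VCaP group no test was run. Named sites were all peaks found only at t0 and the 5 with the highest or lowest score, or the highest ratio, in each class, ties by position and 1 interval per MACS peak. Sites said to be chosen after seeing values were added. Members, classes and lists were chosen with earlier results of these data known. Alternatives were whole MACS peaks, 50% overlap of the shorter interval, a minimum score of 100, tied scores left out, vehicle cut to the size of t0, all MACS peaks, SWEMBL intervals, R1881 for vehicle and each Jurkat replicate. Finer bins, width bins, split pieces left out and wider counts of t0-only peaks were added after seeing the data. Python 3.11.15, numpy 2.4.6, scipy 1.17.1 and matplotlib 3.10.9 were used. The overlap counts were tested on simulated data against bedtools 2.31.1.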

Additional observations from a re-analysis of the deposited data

How the results depend on the processing

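Alternatives were run for 9 results, and not for the chromosome, ERG, R1881, score ratio and clustering values. Only the Jurkat differences could have changed sign, and they did not. Of the alternative values, 29 stayed within the interval of the main result or, for counts, within 1.5 times, and 37 moved outside. The share of vehicle peaks found at t0 (42.9%) became 47.0% for whole MACS peaks, 40.5% without tied scores, 76.7% for a vehicle set cut to the t0 size by score, 32.7% for all MACS peaks, 45.7% with R1881 for vehicle and 45.1% without split pieces beside a shared piece. The share of vehicle-only peaks weak at t0 (52.1%) became 47.8% for whole MACS peaks, 54.5% at a minimum score of 100, 55.3% with R1881 and 48.7% without those pieces. The median score percentile of shared peaks (74.4) became 75.6 for whole MACS peaks and 75.7 without tied scores, and that of vehicle-only peaks (29.8) 27.4, 31.0 and, without split pieces, 28.5. The median width of shared peaks (361 bp) became 1330 bp for whole MACS peaks and 352 bp without tied scores, and that of vehicle-only peaks (150 bp) 942 bp for whole MACS peaks. The Jurkat difference (47.2 points) became 25.2 for the reduced set, 52.1 for all MACS peaks, 44.8 for both replicates, 40.9 for Jurkat MACS peaks, 44.5 with R1881 and 49.4 without split pieces, and ran from 42.4 to 49.6 leaving out a Jurkat replicate. Within deciles (17.0 points) it became 9.33 for whole MACS peaks, 20.5 for the reduced set, 8.78 for all MACS peaks, 6.63 for Jurkat MACS peaks, 12.7 without split pieces and 9.07 for score and width together, and ran from 12.3 without replicate 2 to 20.9 without replicate 1. The count of 12 peaks found only at t0 became 5 without the chromosome 11 stretch, 3 counting vehicle SWEMBL intervals and 0 counting either caller.

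With 1 library per VCaP condition, no spread between cultures was measured, and the unknown depths limit every score comparison. A peak uncalled at t0 was not detected there at this depth and is not shown to be unbound. No paired analysis was possible because no VCaP group has a second sample and the Jurkat replicate numbers pair with no VCaP library.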
